A study of Mus musculus with 6 samples.

Results

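The genes described here take up, store, oxidise and degrade retinol, the alcohol form of vitamin A, together with the homeobox gene Isx. The 8 members were chosen by name (Rbp2, Lrat, Isx, Rdh10, Dhrs3, Aldh1a1, Crabp2 and Cyp26b1) out of 19938 genes tested, and each had 1 probe set. RNA was measured on 6 whole-transcript arrays of small intestinal epithelial cells isolated from mouse embryos at E18.5, shortly before birth. The labels name 3 arrays control and 3 arrays Gata4Gata6 cKO, a double conditional knockout of the endodermal transcription factor genes Gata4 and Gata6. The sources used here do not give the Cre driver, the deleted exons, the control genotype or the litters. Nor do they say whether each array held RNA of its own animal, so the p-values may reflect technical spread alone.

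Enterocytes absorb retinol and carotenoids, bind retinol to the carrier RBP2, esterify it through LRAT and send the esters out in chylomicrons. A smaller share is oxidised, first to retinal and then to retinoic acid, the ligand of the nuclear receptors RAR and RXR, and CYP26 enzymes break retinoic acid down. ISX is known as a feedback repressor in this epithelium: it is induced by retinoic acid and represses Scarb1, a carotenoid uptake receptor gene, and Bco1, which encodes the enzyme that cleaves beta-carotene.

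All changes are arrays labelled cKO minus arrays labelled control on the deposited log2 scale, as change ± SE with n = 3 arrays per group. Adjusted p-values come from limma, corrected over all genes by Benjamini-Hochberg. Array medians were 7.73 to 7.84, and the number of arrays limits the precision. Neither targeted gene was reduced where the labels say cKO: Gata4 changed by 0.47 ± 0.075 (adjusted p = 0.0101) and Gata6 by 0.45 ± 0.065 (adjusted p = 0.0067). Each has 1 probe set with probes along the gene, and which exons were removed is not given, so every direction here rests on the labels. All 9 markers of intestinal epithelium were measured, with 0 values at 0 and an array mean of 12.05 to 12.33. Among them Fabp2, an enterocyte fatty acid binding protein gene, fell by 2.73 ± 0.27, while Epcam, Krt8 and Krt19 rose. The mean of 11 hepatocyte markers was 12.96 on cKO 2 and 11.38 on control 3, against 8.45 to 10.01 on the other 4 arrays, and calls that change with both of these arrays left out are given below. Without them the changes of Gata4 and Gata6 were 0.48 and 0.46 (adjusted p = 0.0646 and 0.0503).

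The genes that bind and esterify retinol fell steeply, whereas Isx, Rdh10, Dhrs3, Crabp2 and Cyp26b1 did not pass the test. Of the 8 members 3 were lower and 0 higher under limma, and 5 did not pass. At an unadjusted p under 0.05 the counts were 4 and 0, where 15.1% of all genes were lower and 11.5% higher by that rule. At the adjusted threshold, of all genes tested, 7.42% were lower and 5.52% higher, 12.9% in all. The groups did not overlap in 4 members, all lower on the arrays labelled cKO, where 18.3% of all genes were so separated downward. The median change of the members was −0.13, and that of all genes −0.01.

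Rbp2, the intracellular carrier of retinol and retinal in enterocytes, stood at 12.78, 12.93 and 12.94 on the control arrays. On the arrays labelled cKO its levels were 11.39, 11.23 and 11.31. The groups were far apart, and each spread over less than 0.2. The change of −1.57 ± 0.08 (2.98-fold lower, 95% interval −1.77 to −1.37, adjusted p = 0.000227) ranked 158 among the falls of all genes.

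Lrat encodes the acyltransferase that turns retinol into retinyl ester, its storage and transport form. Its levels were 11.74, 11.82 and 11.98 on the control arrays and 9.32, 9.15 and 9.18 on the arrays labelled cKO. This was the largest change of the 8 members, at −2.63 ± 0.09 (6.19-fold lower, 95% interval −2.86 to −2.40, adjusted p = 7.12e-05), and ranked 30 among all falls. The calls of Rbp2 and Lrat held in all 18 alternative analyses. With control 3 and cKO 2 both left out, the changes were −1.50 (adjusted p = 0.00361) and −2.53 (adjusted p = 0.0013). In bulk RNA, fewer cells of a type and less RNA per cell cannot be told apart, which applies to each change here.

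Isx did not pass the test. It stood at 11.58, 11.40 and 11.64 on the control arrays and at 11.66, 11.50 and 11.76 on the arrays labelled cKO. The ranges overlapped, and the change was 0.10 ± 0.10 (95% interval −0.15 to 0.35, adjusted p = 0.606). Leaving out 1 array gave 0.03 to 0.17. The Cdx2 gene, whose product is a homeobox factor of intestinal identity known to act upstream of Isx, changed by 0.11 ± 0.10 (adjusted p = 0.551).

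**Figure D1:**
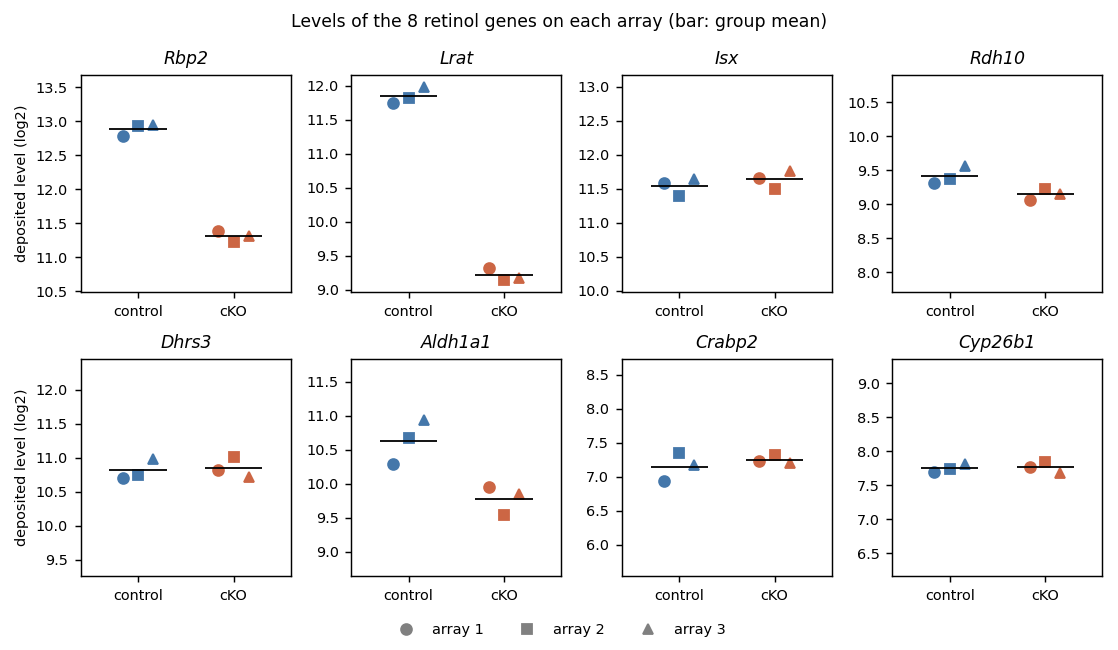
Level of each of the 8 members on every array, in log2 units as deposited, with control arrays at the left and cKO arrays at the right of each panel. Symbols mark the array number and bars the group mean, and all panels span the same range of log2 units. Rbp2 and Lrat show wide gaps between the groups, Aldh1a1 a smaller one, and Isx, Dhrs3, Crabp2 and Cyp26b1 overlap.

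The 250 bases before the RefSeq start (GRCm38.p6) are shown for the pair of members with the steepest falls and for Isx, since GATA factors bind the letters GATA and the labels name a knockout of this pair of them. Capitals mark matches on either strand to the motif AGATAA, the motif AGATAG, the motif TGATAA or the motif TGATAG. The windows are chr9:98490287-98490536 (plus strand) for Rbp2, chr3:82903975-82904224 (minus strand) for Lrat and chr8:74872924-74873173 (plus strand) for Isx, each written 5′ to 3′ along the gene.
Rbp2: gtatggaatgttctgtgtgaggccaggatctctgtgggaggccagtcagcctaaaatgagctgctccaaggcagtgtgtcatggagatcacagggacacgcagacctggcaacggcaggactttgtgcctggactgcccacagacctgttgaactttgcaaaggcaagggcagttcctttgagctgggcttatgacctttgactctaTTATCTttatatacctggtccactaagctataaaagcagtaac
Lrat: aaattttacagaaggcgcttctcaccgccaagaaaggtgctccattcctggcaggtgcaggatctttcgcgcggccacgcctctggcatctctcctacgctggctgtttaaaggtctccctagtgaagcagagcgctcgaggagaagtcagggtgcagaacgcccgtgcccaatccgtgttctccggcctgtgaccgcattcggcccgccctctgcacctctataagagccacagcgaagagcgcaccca
Isx: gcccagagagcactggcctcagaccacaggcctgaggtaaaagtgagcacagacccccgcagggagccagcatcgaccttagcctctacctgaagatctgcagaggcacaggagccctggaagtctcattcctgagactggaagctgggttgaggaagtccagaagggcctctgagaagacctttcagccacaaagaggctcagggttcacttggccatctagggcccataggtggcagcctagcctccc
Rbp2 had 1 match, TTATCT, the other-strand form of AGATAA, which ended 37 bases before the start. Lrat and Isx had 0 matches in these windows. Among 32851 RefSeq windows of this length, 26.5% held at least 1 match, so the match in Rbp2 is a common one. Of the 6 members with a window, Aldh1a1 was the other with matches, 2 in the window of 1 of its starts and 0 in that of the other. Direct repeats of retinoic acid receptor units (the motif AGGTCA, the motif GGGTCA, the motif AGTTCA or the motif GGTTCA, in any pair), spaced by 1, 2 or 5 bases on either strand, occurred in 0 of the 9 windows of members and in 0.426% of all windows. Only exact copies of the listed motifs were counted, so near matches, such as a repeat with a changed base, were missed. The letters describe these windows alone and say nothing of binding elsewhere.

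Of the 2 member genes for oxidation, Aldh1a1 fell and Rdh10 did not pass. Aldh1a1 encodes a retinal dehydrogenase that makes retinoic acid. Its control levels of 10.29, 10.67 and 10.94 all lay above the 9.95, 9.54 and 9.85 of the arrays labelled cKO. The change of −0.85 ± 0.19 (1.81-fold lower, adjusted p = 0.032) was called, but only leaving out control 1 kept the call, and without any other array the adjusted p was 0.0548 to 0.108. Leaving out 1 array gave −1.03 to −0.70, and leaving out both control 3 and cKO 2 gave −0.58 (adjusted p = 0.103). Aldh1a7, a close relative and the next gene on the chromosome, fell by 1.07 ± 0.18 (adjusted p = 0.0115), a call lost without control 2 (adjusted p = 0.0514). Probes may not separate these similar sequences.

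Rdh10, which encodes the retinol dehydrogenase of the step before, stood at 9.32, 9.38 and 9.56 on the control arrays and at 9.06, 9.22 and 9.16 on the arrays labelled cKO. The groups did not overlap, yet the change of −0.27 ± 0.09 (95% interval −0.50 to −0.05) did not pass (adjusted p = 0.116, unadjusted 0.0233). Dhrs3 encodes the enzyme that reduces retinal back to retinol. It stood at 10.71, 10.75 and 10.99 on the control arrays and at 10.82, 11.01 and 10.72 on the arrays labelled cKO. Its groups overlapped, with a change of 0.03 ± 0.11 (95% interval −0.24 to 0.31, adjusted p = 0.89).

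Crabp2, whose product delivers retinoic acid to its receptors, stood at 6.93, 7.34 and 7.17 on the control arrays and at 7.23, 7.32 and 7.20 on the arrays labelled cKO. Cyp26b1, which encodes a retinoic acid hydroxylase, stood at 7.70, 7.74 and 7.82 and at 7.77, 7.85 and 7.68. Both sets of ranges overlapped. The 95% intervals were −0.18 to 0.38 for Crabp2 and −0.18 to 0.20 for Cyp26b1 (adjusted p = 0.638 and 0.939). No detection calls were used, so whether these dimmer probe sets were above background is not known.

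**Figure D2:**
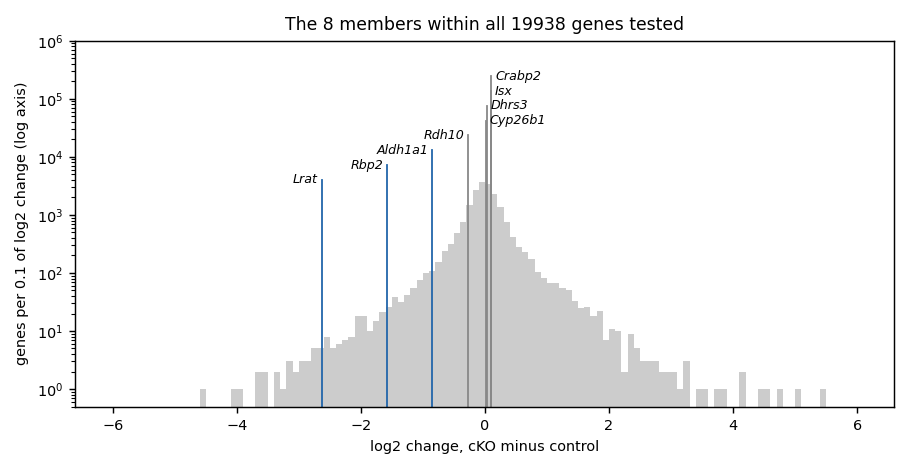
Histogram of the log2 change of all 19938 genes (horizontal axis, cKO minus control; vertical axis, number of genes per bin on a log scale), with a line at each member. The height of a line carries no value. Lrat and Rbp2 lie far in the lower tail, and Isx, Dhrs3, Crabp2 and Cyp26b1 lie between 0.01 and 0.10.

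A list of 58 further retinoid genes was set beside the members, of which 56 were measured: 11 were lower, 3 were higher and 42 did not pass (25% called, against 12.9% of all genes). Their median change was −0.03. The counts by role below stand against 7.42% of all genes lower and 5.52% higher, and no role was tested as a set. With so few genes per role, a count of 0 or 1 is near that share.

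At the entry of carotenoids and retinoids, 2 of 6 genes fell. Cd36, a lipid scavenger receptor gene, fell by 2.75 ± 0.39 (6.74-fold, adjusted p = 0.00666). Bco2, which encodes a mitochondrial carotenoid-cleaving enzyme, changed by −1.38 ± 0.33 (adjusted p = 0.0433), and that call was kept without control 1 or cKO 3 alone (adjusted p of up to 0.118 without another array). Bco2 also missed the threshold with a trended and robust eBayes (adjusted p = 0.069), and without both control 3 and cKO 2 its change was −0.96 (adjusted p = 0.143). Bco1 and Scarb1 are the known ISX targets. Bco1 lay at 7.66, 7.64 and 7.74 on the control arrays and at 7.84, 7.80 and 7.43 on the arrays labelled cKO, an overlapping pair of ranges with a change of 0.01 ± 0.12 (adjusted p = 0.973). Scarb1 lay at 10.59, 10.70 and 10.97 on the control arrays and at 9.58, 10.54 and 9.57 on the arrays labelled cKO, so that cKO 2 stood close to the controls. Its groups did not overlap, yet its change of −0.86 ± 0.28 missed the threshold (adjusted p = 0.102, unadjusted 0.0191). It passed without cKO 2, with array weights, and with the hepatocyte and erythroid markers as a covariate. Without cKO 2 it was −1.18 (adjusted p = 0.00327), and without both control 3 and cKO 2 it was −1.07 (adjusted p = 0.00605).

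Genes of ester formation, ester hydrolysis and export were lower in 5 of 8 measured and higher in 0 under limma. At an unadjusted p under 0.05 Lpl, a lipoprotein lipase gene, was also higher (2.03 ± 0.68), with 11.25 on cKO 2 and 7.14 to 9.06 elsewhere. Dgat1 encodes an acyltransferase that can also esterify retinol, and its levels went from 12.15, 12.22 and 12.37 on the control arrays to 10.41, 10.31 and 10.59 on the arrays labelled cKO. The groups were well separated, with a change of −1.81 ± 0.10 (adjusted p = 0.000283). Lipe, which encodes a lipase that hydrolyses retinyl esters, fell by 1.10 ± 0.15 (adjusted p = 0.00573). Mttp, needed to load lipid onto apolipoprotein B, fell by 1.63 ± 0.11 (adjusted p = 0.00052). Lipa, the lysosomal acid lipase gene, and Apob, the chylomicron scaffold gene, changed by −0.72 and −0.65. The Lipa call was lost without any 1 control array (adjusted p up to 0.111), and without both control 3 and cKO 2 (adjusted p = 0.115). Only leaving out cKO 2 kept the Apob call, and without any other array the adjusted p reached 0.0857 at most.

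Among 17 dehydrogenases and reductases of retinol and retinal, 3 fell and 2 rose. Sdr16c5, a retinol dehydrogenase gene of the short-chain family, fell to dim levels. Its levels were 9.09, 9.21 and 9.55 on the control arrays and 6.33, 6.16 and 6.40 on the arrays labelled cKO. The difference of −2.99 ± 0.14 (adjusted p = 0.000171) held in each of the 17 alternatives in which the gene was tested. Its size was −2.57 after 32 was added to the linear levels, and whether the cKO levels were above background is not known. The related Sdr16c6 changed by −0.55 ± 0.096 (adjusted p = 0.0142) from a dim 5.73, and lost its call without control 1, control 3 or cKO 3 (adjusted p up to 0.0595). Dhrs4, a retinal reductase gene, changed by −0.50 ± 0.08 (adjusted p = 0.0105), with its call lost without control 2 (adjusted p = 0.0505).

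Rdh9 and Rdh16, similar microsomal dehydrogenase genes of 1 family, moved the other way from low levels. Rdh9 rose by 0.76 ± 0.12 (adjusted p = 0.00889) from a control mean of 6.44, a call lost with the mesenchyme and muscle markers as a covariate (adjusted p = 0.0716). Rdh16 changed by 0.88 ± 0.18 (adjusted p = 0.0271) from 6.70, and lost its call without any 1 control array (adjusted p up to 0.0905). Probes may not separate members of this family. Calls were also lost without both control 3 and cKO 2 for Rdh16 (0.95, adjusted p = 0.101), Sdr16c6 (−0.48, adjusted p = 0.101), Dhrs4 (−0.50, adjusted p = 0.0714) and Aldh1a7 (−0.93, adjusted p = 0.0784).

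Of 6 responsive genes and Cdx factors 0 passed under limma, and 0 at an unadjusted p under 0.05. Of 7 receptor genes 1 passed, and by the unadjusted rule 2 were higher, the other being Ppard (0.37). The receptor gene that passed was Rarg, a retinoic acid receptor gene. Its levels of 8.87, 8.81 and 8.94 on the arrays labelled cKO lay above the 8.13, 8.29 and 8.10 of the control arrays, a rise of 0.70 ± 0.08 (1.62-fold, adjusted p = 0.0035) whose call held in all 18 alternatives. Rara, Rarb and Rxra changed by 0.11, −0.15 and 0.16 (adjusted p = 0.593, 0.626 and 0.416). Cyp26a1, a retinoic acid hydroxylase gene that retinoic acid is known to induce, changed by −0.10 ± 0.098 (adjusted p = 0.596). Of the 2 breakdown genes apart from Cyp26b1, 0 passed, and Cyp26c1 was lower at an unadjusted p under 0.05 (−0.22). Aldh1a2, a retinal dehydrogenase gene typical of mesenchyme, changed by 0.22 ± 0.07 (adjusted p = 0.11, unadjusted 0.0213), with groups that did not overlap. Of the 4 synthesis genes apart from Aldh1a1, 1 passed, the Aldh1a7 described above. Among retinoid carriers apart from the members Rbp2, which fell, and Crabp2, 0 of 6 passed under limma. At an unadjusted p under 0.05 there was 1, the plasma carrier gene Ttr (1.03 ± 0.37). The intracellular carrier gene Crabp1 changed by −0.03 ± 0.087 (adjusted p = 0.885).

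**Figure D3:**
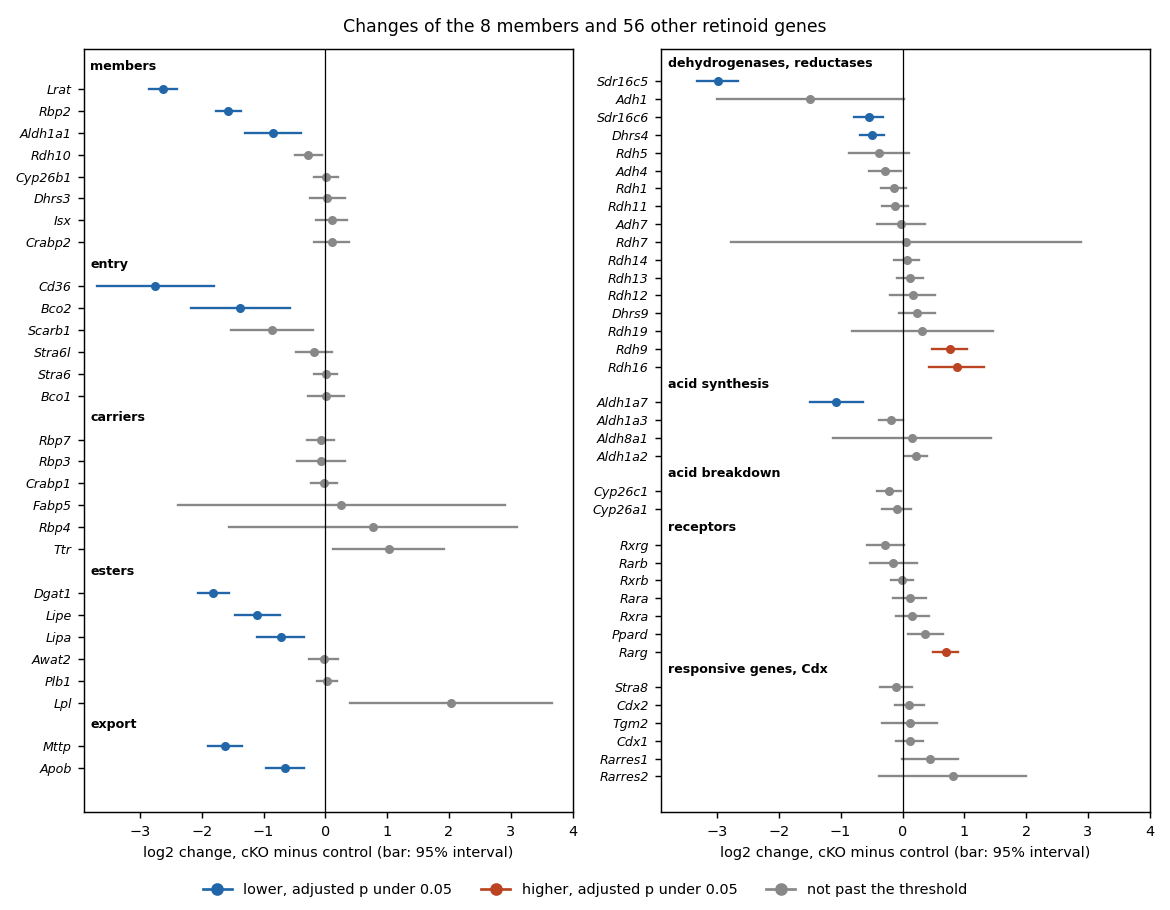
Log2 change with its 95% interval (horizontal axis, cKO minus control) for the 8 members and 56 other retinoid genes, grouped by role, with blue for lower and red for higher past an adjusted p of 0.05 and grey for the rest. Falls lie in several roles, from Lrat and Sdr16c5 to Mttp. The carrier group, which leaves out the members Rbp2 and Crabp2, holds none past the threshold.

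Markers of other cell types moved between arrays, and some retinoid genes moved with them. Of 12 hepatocyte markers 11 were measured, with 0 values at 0. Their summed linear level was 8275 to 38100 on the control arrays and 14440 to 92490 on the arrays labelled cKO. Ambp, 1 of these markers, was called higher under limma (2.52 ± 0.41, adjusted p = 0.0106). At an unadjusted p under 0.05 Ttr was higher too (1.03), and the rest overlapped between the groups. For 7 of 10 erythroid markers the summed level was 1399 to 4046 and 1149 to 16070, again with 0 values at 0. Both lists were highest on cKO 2, as were Rbp4, the plasma retinol carrier gene of liver, and Rdh7. These genes and Adh1 are named after their values were seen. Rbp4 stood at 12.56 on cKO 2 and at 8.98 to 10.40 elsewhere. Rdh7 stood at 11.40 on cKO 2 and at 6.83 to 9.04 elsewhere.

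Adh1, an alcohol dehydrogenase gene active on retinol, stood at 12.69, 12.79 and 12.91 on the control arrays. On the arrays labelled cKO it stood at 10.22 and 10.86 on cKO 1 and cKO 3, and at 12.84 on cKO 2, within the control range. Its change of −1.49 ± 0.63 did not pass (adjusted p = 0.193), and without cKO 2 it was −2.26 (adjusted p = 0.00143). Without both control 3 and cKO 2 it was −2.20 (adjusted p = 0.00771), and with the hepatocyte and erythroid marker mean as a covariate −1.61 (adjusted p = 0.0235). Rdh7 changed by 0.06 with all arrays, by −1.39 without cKO 2 (adjusted p = 0.0403) and by −0.18 with that covariate (adjusted p = 0.865).

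With the mean of the hepatocyte and erythroid markers as a covariate, Rbp2 and Lrat changed by −1.57 and −2.63, as without it. The mean of each list overlapped between the groups, at 8.45 to 11.38 and 8.92 to 12.96 for hepatocytes. The covariate differed little between the groups, so it could move a group change only a little. Even Rdh7 went only from 0.06 to −0.18 with it. The part of these cells in the falls of Rbp2 and Lrat was therefore not tested. Lrat is also a marker of hepatic stellate cells. The other 6 markers of that list had summed levels of 1611 to 1778 on the control arrays and 1676 to 3110 on the arrays labelled cKO. Under limma 0 of these were called. At an unadjusted p under 0.05 Des (0.64) and Pdgfrb (0.42) were higher, and the rest overlapped between the groups. The 10 mesenchyme and muscle markers had 0 values at 0. Their summed level was 3325 to 4475 on the control arrays and 4612 to 9580 on the arrays labelled cKO. The mean of the list overlapped between the groups, at 8.154 to 8.596 and 8.484 to 9.463, with 0 called under limma. At an unadjusted p under 0.05, Col1a1 (0.57), Col1a2 (0.9), Dcn (1.85), Vim (1.32) and Acta2 (1.73) were higher. By that rule Pdgfra (−0.55) and Foxf1 (−0.34) were lower. With the mean of that list as a covariate, Rbp2 changed by −1.55 (adjusted p = 0.00985), Lrat by −2.66 (adjusted p = 0.00446) and Aldh1a1 by −0.72, the last without passing (adjusted p = 0.299). That covariate also ended the calls of Bco2 (−0.75, adjusted p = 0.423), Apob, Rdh9, Rdh16, Sdr16c6, Dhrs4, Aldh1a7, Gata4 and Gata6 (adjusted p of the last 8 from 0.0641 to 0.306). Calls dropped over all genes with it too, so these losses are not particular to the genes named, and their cause was not tested.

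The mean of 7 mesothelial markers was 7.61 to 7.76 on the control arrays and 7.92 to 8.07 on the arrays labelled cKO, with Msln (0.93), Lrrn4 (0.77) and Upk1b (1.40) higher and Upk3b (−1.86) lower past the threshold. That of 5 enteric neuron and glia markers was 8.36 to 8.41 and 7.86 to 8.08, with Ret lower (−1.40). Tubb3 was lower at an unadjusted p under 0.05 (−0.56), and Sox10 (−0.05), Elavl4 (0.10) and S100b (−0.09) overlapped between the groups. Neither list mean overlapped between the groups, but the summed mesothelial level did. It was 1926 to 2811 on the control arrays and 1835 to 2049 on the arrays labelled cKO. Immune markers overlapped at 7.87 to 8.38 and 7.60 to 9.50, with Csf1r lower (−2.22). Endothelial markers (7.32 to 7.92 and 6.87 to 8.44) and exocrine pancreas markers (8.12 to 10.82 and 9.61 to 10.63) overlapped too, with 0 called under limma and 0 at an unadjusted p under 0.05. All 5 lists had 0 values at 0, and their part in the retinoid results was not tested.

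**Figure D4:**
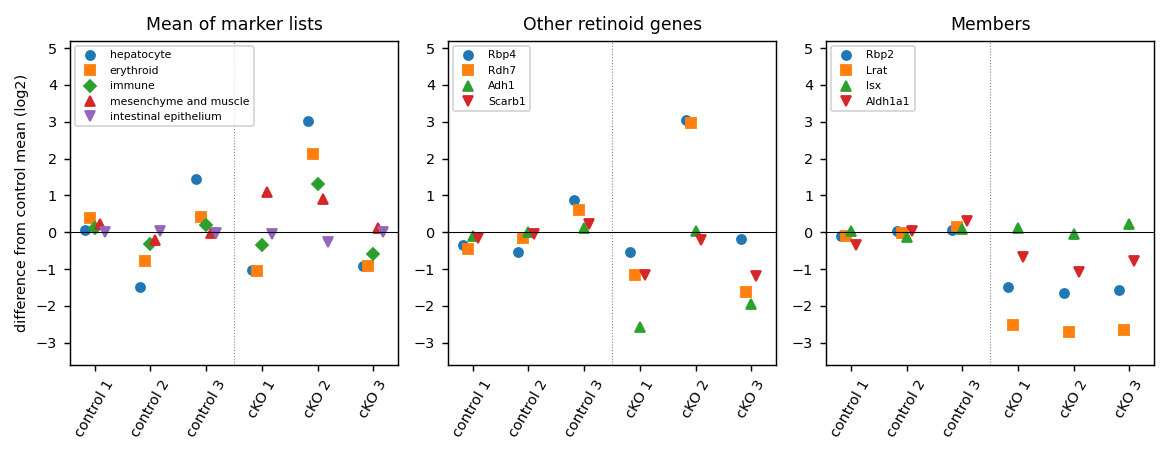
Difference of each array from the control mean in log2 units (vertical axis) for the means of 5 marker lists, for 4 other retinoid genes and for 4 members, with 1 symbol per list or gene and arrays along the horizontal axis. Rbp4 and Rdh7 rise on cKO 2 where the hepatocyte and erythroid means do, while Rbp2 and Lrat are low on all 3 arrays labelled cKO.

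The genes whose 6 levels, each centred on its own mean, lay nearest to those of a called member were found by the smallest root mean square difference, as a description. For Rbp2 they were Casp6, a caspase gene (0.0627), and Myl7, a myosin light chain gene (0.0634). For Lrat they were Gpr155 (0.135) and Igsf23 (0.158), and for Aldh1a1 they were Malrd1 (0.102) and Slc25a34 (0.111). Casp6 stood at 11.78, 11.90 and 12.01 on the control arrays and at 10.28, 10.26 and 10.38 on the arrays labelled cKO, with a gap between the groups like that of Rbp2.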

How the data were processed

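The deposited table holds log2 levels of 35512 probe sets on 6 arrays, made by the authors with dChip per the series text. The sources used here do not give its version, background correction, normalization, expression model, centring or log base. Log2 was inferred from the range of values (0 to 14.25, with 2 decimals), and fold changes rest on it. Detection calls were not used.

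Of the probe sets, 21789 were annotated to 1 gene symbol, 1621 to several and 12102 to none. The first kind was used, and for the 999 genes with several the probe set with the highest mean was kept. Gene IDs were matched to RefSeq symbols (GRCm38.p6) for 21698 of them. Groups were compared with limma 3.58.1 in R 4.3.3 (lmFit and eBayes, two-sided, no covariate), with a threshold of 0.05 on adjusted p. No 2 arrays held identical values. The fit was tested on simulated data.

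The members and lists were chosen with earlier results of these data known. Named are the members, Gata4, Gata6, each other retinoid gene past the threshold, 10 fixed retinoid genes and the 2 genes of nearest pattern per called member, among genes with a mean level of at least 6 and without clone-like or predicted names. Marker lists were fixed with them. Summed levels are sums of 2 to the power of the log2 level, without members. Promoter windows came from RefSeq. Alternatives were quantile normalization, median centring, log2(value + 32), 2 filters on dim genes, array weights, a robust eBayes with trend, a block for the replicate number, the mean of a gene's probe sets, 2 marker covariates, each array left out, and control 3 with cKO 2 left out.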

Additional observations from a re-analysis of the deposited data

How the results depend on the processing

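Of the 8 members, 3 or 2 passed in each alternative. Rbp2 and Lrat passed in all 18, and Aldh1a1 was the member whose call was lost. Quantile normalization turned the changes of Cyp26b1 (−0.0022) and Bco1 (−0.0006), and array weights those of Cyp26b1 (−0.0118), Bco1 (−0.0503) and Rdh7 (−0.55). Rdh7 was −0.18 with the hepatocyte and erythroid covariate. With the mesenchyme covariate Dhrs3 was −0.0574, Cyp26b1 −0.0508, Bco1 −0.25, Cyp26a1 0.0984 and Rdh7 −1.04. Without control 3 and cKO 2 together, Bco1 was −0.015 and Rdh7 −1.09 (adjusted p = 0.0348). Leaving out 1 array gave ranges that crossed 0 for Dhrs3 (−0.0467 to 0.12), Crabp2 (−0.005 to 0.20), Cyp26b1 (−0.0283 to 0.0567), Bco1 (−0.065 to 0.14), Crabp1 (−0.0867 to 0.015), Rarb (−0.25 to 0.025), Rbp4 (−0.37 to 1.42) and Rdh7 (−1.39 to 0.89). Counts past the threshold were 2580 genes and 14 other retinoid genes with all arrays, 1482 to 2281 and 8 to 17 with 1 array left out, and 2 or 3 members. The mesenchyme covariate left 711 genes and 7 other retinoid genes, and leaving out control 3 and cKO 2 left 1586 genes. The cause was not tested.

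With the replicate number as a block, 1449 genes, 2 members and 9 other retinoid genes passed, and Aldh1a1 had an adjusted p of 0.082. The block also ended the calls of Lipa, Apob, Rdh16, Dhrs4, Aldh1a7 and Gata4. Deviations from the group mean correlated at −0.02, −0.42 and −0.18 across genes for arrays of the same number. For arrays of different numbers the values ran from −0.30 to 0.36. With 3 arrays per group these values cannot decide whether the numbers pair the arrays. Dim levels cannot show how far a gene fell.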

Other observations

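The genes lying next to the members on the chromosome, 2 on each side in RefSeq order, were looked up after the values had been seen. Of 32 neighbours 29 were measured, and 2 were lower and 2 higher, against 12.9% of all genes called in either direction. Beside Rbp2, Nmnat3, which encodes an enzyme of NAD synthesis, fell by 0.61 ± 0.079 (adjusted p = 0.00454). Beside Aldh1a1 lies Aldh1a7, described above. Beside Crabp2, which did not pass, Nes, the gene of the intermediate filament nestin, rose by 2.17 ± 0.14 (adjusted p = 0.000354). Beside Cyp26b1, Exoc6b, an exocyst subunit gene, rose by 0.42 ± 0.096 (adjusted p = 0.0345). The genes after Lrat are Fgg and Fga, which encode fibrinogen chains of liver, and they changed by 0.51 ± 1.99 and 0.67 ± 1.04 (adjusted p = 0.905 and 0.74), with a spread much wider than that of Lrat.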
